A study of Danio rerio with 17 samples.

Results

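The genes per2, cry5, cry-dash, cry1aa, cry1bb and tefa are 6 of the 15316 genes counted in each library, and they are described here in all 17 libraries. They were taken by name and chosen by their measured levels in glucose, FFA and control libraries of this same dataset, so their levels and fold changes are a description and carry no test. In zebrafish, cells of many tissues respond to light directly, and light switches on a set of genes that includes clock repressors and DNA repair enzymes. Period and cryptochrome proteins repress the CLOCK and BMAL transcription factors that drive the circadian clock. Photolyases are relatives of the cryptochromes that use light energy to repair DNA damaged by ultraviolet light, and many light-induced genes carry D-boxes, elements bound by PAR bZIP factors such as tefa.

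Each library came from 10 whole AB line zebrafish embryos, pooled and frozen at 72 hours post fertilization (hpf). The 6 glucose pools were exposed to 3% glucose from 24 hpf, and the 6 FFA pools had a fluorescent lipid, labelled with BODIPY and dissolved at 1 mg/ml in canola oil, injected into the yolk at 24 hpf. The 5 control pools carry no treatment in their labels. The sources used here do not give the light schedule, the hour of freezing, whether controls were injected or whether pools came from separate clutches, and no osmotic control is labelled. The p-values of group comparisons below therefore weigh differences of means against the spread between these pools, which may be technical. They may not hold beyond these pools.

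Libraries were grouped by title here, although the treatment tag names another group for 11 of the 17 libraries, namely all 6 glucose libraries and 5 FFA libraries. Glucose replicates 2 to 6 are tagged as FFA, FFA replicates 2 to 6 as glucose, and glucose replicate 1 as control. In per2 the library titled glucose replicate 1, tagged control, had 171.1 CPM (counts scaled to a mega-count per library). That lay inside the 163.5 to 179.7 CPM of the other glucose libraries and above the 58.1 to 82.4 CPM of the control libraries. The library titled FFA replicate 1, tagged FFA like glucose replicates 2 to 6, had 18.8 CPM, the lowest per2 level of the 17 libraries. Since per2 was chosen by its levels in the title groups, these levels cannot decide between title and tag. An exchange of the names glucose and FFA would turn every statement on one treatment below into one on the other. Counts assigned to genes were 10.2 to 16.7 M (mega-counts) in glucose, 11.3 to 15.4 M in FFA and 11.7 to 14.6 M in control libraries. Control replicates 1 and 2 and glucose replicate 4 had summed photoreceptor marker levels of 8795, 6664 and 7646 CPM, and no other library was above 5807 CPM.

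All 6 genes had their highest mean level in glucose pools, their middle one in control pools and their lowest in FFA pools. Against control pools, glucose pools had 1.45 to 3.79 times the level, and no glucose library overlapped a control library in any of the 6 genes. FFA pools lay below control pools by a log2 fold change of -1.25 in per2 and of -0.60 to -0.20 in the other 5 genes, and FFA and control libraries overlapped in 4 of the 6. Each level is a CPM value of 1 gene, not corrected for gene length, so levels are compared between libraries and not between genes. In whole embryos, fewer cells of a type and less RNA per cell cannot be told apart.

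per2, a period gene that zebrafish cells switch on in light, had a lowest, median and highest level of 163.5, 170.1 and 179.7 CPM in glucose libraries. In FFA libraries these values were 18.8, 28.2 and 41.8 CPM. The control libraries had 70.4, 70.6, 58.1, 64.2 and 82.4 CPM in replicates 1, 2, 3, 4 and 6. The 3 groups did not overlap, with every glucose library above every control library and every FFA library below. The means were 170.3 ± 5.66 CPM in glucose (SD, n = 6), 29.2 ± 8.82 CPM in FFA (n = 6) and 69.1 ± 9.03 CPM in control pools (n = 5). The log2 fold change was 1.30 ± 0.155 (SE) for glucose against control, -1.25 ± 0.155 for FFA against control and 2.55 ± 0.154 for glucose against FFA, the last a 5.84-fold difference. per2 varied by a coefficient of variation (SD over mean) of 3.32% among glucose pools, 30.2% among FFA pools and 13.1% among control pools.

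cry1aa, a light-induced cryptochrome that represses CLOCK and BMAL, had a lowest, median and highest level of 163.1, 166.2 and 176.2 CPM in glucose libraries. In FFA libraries these were 76.1, 92.9 and 102.5 CPM. The control libraries had 121.6, 120.1, 105.2, 114.1 and 120.1 CPM in replicates 1, 2, 3, 4 and 6. As in per2, the 3 groups did not overlap, but the highest FFA library and the lowest control library were close, at 102.5 against 105.2 CPM. The means were 168.6 ± 5.81 CPM in glucose, 91.6 ± 9.80 CPM in FFA and 116.2 ± 6.79 CPM in control pools. The log2 fold change was 0.54 ± 0.0670 for glucose against control, -0.34 ± 0.0666 for FFA against control and 0.88 ± 0.0640 for glucose against FFA.

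cry1bb, another cryptochrome that represses CLOCK and BMAL, had a lowest, median and highest level of 37.2, 42.2 and 43.9 CPM in glucose libraries and of 18.3, 20.5 and 26.3 CPM in FFA libraries. The control libraries had 20.9, 25.8, 25.6, 26.2 and 28.6 CPM in replicates 1, 2, 3, 4 and 6. Every glucose library was above all others, while FFA and control libraries overlapped. The means were 41.6 ± 2.30 CPM in glucose, 21.1 ± 2.83 CPM in FFA and 25.4 ± 2.80 CPM in control pools. The log2 fold change was 0.71 ± 0.0895 for glucose against control, -0.27 ± 0.0898 for FFA against control and 0.98 ± 0.0856 for glucose against FFA.

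cry5, the 6-4 photolyase, was the least counted of the 6 genes, with 233 to 365 reads in a glucose library, 47 to 67 in an FFA library and 69 to 92 in a control library. Its lowest, median and highest level was 19.99, 22.9 and 24.5 CPM in glucose libraries and 3.03, 3.71 and 6.06 CPM in FFA libraries. The control libraries had 5.39, 5.90, 6.02, 6.25 and 6.26 CPM in replicates 1, 2, 3, 4 and 6. FFA replicate 6 alone reached the control range, and the other 5 FFA libraries were at or below 3.76 CPM. The means were 22.6 ± 1.91 CPM in glucose, 3.95 ± 1.07 CPM in FFA and 5.96 ± 0.358 CPM in control pools. The log2 fold change was 1.92 ± 0.128 for glucose against control, a 3.79-fold difference and the largest of the 6 genes in that comparison. It was -0.60 ± 0.134 for FFA against control and 2.52 ± 0.125 for glucose against FFA.

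cry-dash, a photolyase-like member of the cryptochrome family, had a lowest, median and highest level of 50.5, 54.3 and 59.6 CPM in glucose libraries and of 19.9, 20.8 and 22.1 CPM in FFA libraries. The control libraries had 21.6, 21.5, 23.9, 30.2 and 22.9 CPM in replicates 1, 2, 3, 4 and 6. Glucose libraries stood above all others, and the FFA libraries overlapped the low end of the control libraries. The means were 54.8 ± 3.05 CPM in glucose, 20.9 ± 0.854 CPM in FFA and 24.0 ± 3.58 CPM in control pools. The log2 fold change was 1.19 ± 0.0778 for glucose against control, -0.20 ± 0.0776 for FFA against control and 1.39 ± 0.0739 for glucose against FFA.

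tefa, the PAR bZIP factor of the set, had a lowest, median and highest level of 216.9, 234.7 and 251.2 CPM in glucose libraries and of 94.7, 109.6 and 127.2 CPM in FFA libraries. The control libraries had 111.2, 118.2, 135.0, 143.8 and 126.9 CPM in replicates 1, 2, 3, 4 and 6. FFA and control libraries overlapped over much of their ranges, and every glucose library was higher than both. The means were 234.1 ± 13.3 CPM in glucose, 109.4 ± 11.2 CPM in FFA and 127.0 ± 13.0 CPM in control pools. The log2 fold change was 0.88 ± 0.0773 for glucose against control, -0.21 ± 0.0763 for FFA against control and 1.10 ± 0.0735 for glucose against FFA.

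**Figure D1:**
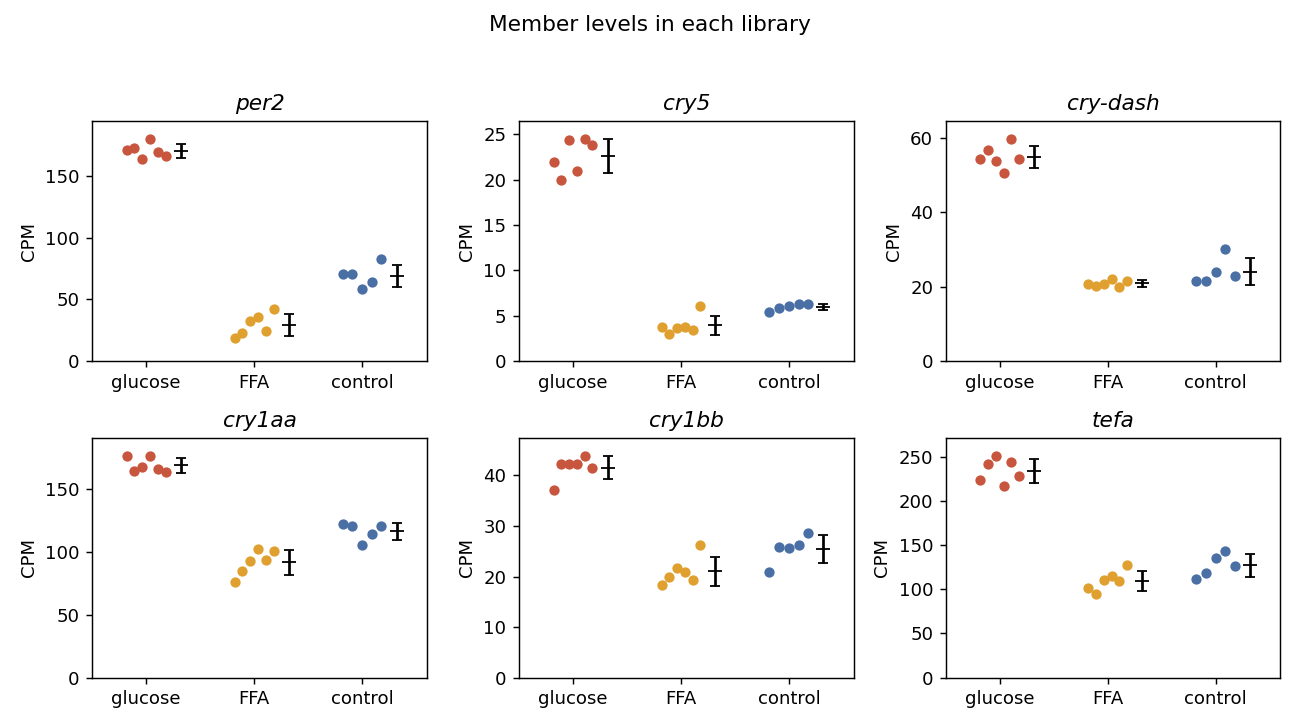
CPM of each gene (vertical axes from 0) in every library, with glucose, FFA and control groups from left to right; points are libraries, and the black bar beside each group is the mean ± SD. Glucose libraries lie above all others in every panel, and FFA libraries lie wholly below control libraries in per2 and cry1aa.

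All 6 genes passed the count filter, as did 13539 genes in all, and edgeR's quasi-likelihood test called a gene where its Benjamini-Hochberg adjusted p was under 0.05. Since the 6 genes were chosen with these comparisons known, the counts that follow are a description. In glucose against control, 6 of 6 were called higher, where 5.87% of all genes tested were, and 6 of 6 did not overlap, where 3.66% of all genes were higher without overlap. In FFA against control, 3 of 6 (per2, cry5 and cry1aa) were called lower, where 0.716% of all genes were. In 2 of 6 (per2 and cry1aa) the FFA libraries lay wholly below the control libraries, where 0.945% of all genes did. In glucose against FFA, 6 of 6 were called higher, where 9.00% of all genes were, and 6 of 6 did not overlap, where 4.17% of all genes were higher without overlap. The median log2 fold change of the 6 genes was 1.04, -0.31 and 1.24 in the 3 comparisons, beside medians of 0.00 to -0.01 over all genes.

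With libraries grouped by title, the FFA and control comparison was the one in which the calls of the 6 genes depended on the fit. Fitted with FFA and control libraries alone, or with the replicate number as a block, 1 of 6 genes was called lower, and it was per2. Without the 3 libraries with the highest photoreceptor sums, 5 of 6 were called lower, all except cry1bb. Leaving out 1 library at a time gave 2 to 4 of 6, with per2 and cry1aa among them each time. The count of 2 came when control replicates 2, 3 or 6 or FFA replicates 1 to 5 were left out, where cry5 was no longer called. The count of 4, with cry1bb added, came when FFA replicate 6 was left out. With the no-feature share as a covariate 4 of 6 were called lower, per2, cry5, cry1aa and tefa. Lower calls over all genes moved with the fit as well, from 97 as reported to 59 from the 2 groups alone and 31 with the block. They were 287 with the covariate, 299 without the 3 libraries, and 52 to 95 when 1 library was left out. The shifts in the 6 genes are therefore not read as particular to them. The glucose and control comparison had 6 of 6 called in each of these fits, where 316 (block) to 1247 (covariate) of all genes were called higher.

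**Figure D2:**
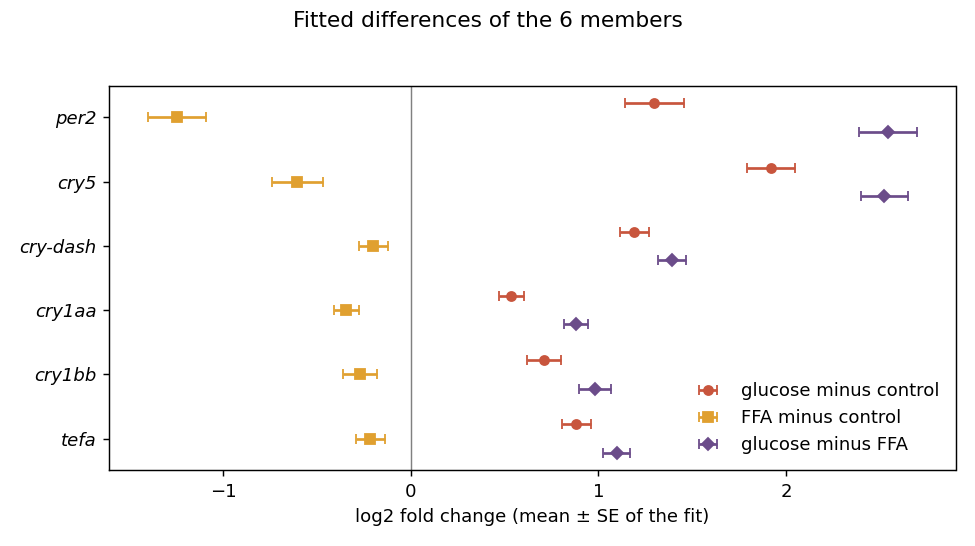
Fitted log2 fold change (horizontal axis, mean ± SE of the fit) of each gene for glucose minus control, FFA minus control and glucose minus FFA. The glucose minus control values run from 0.54 in cry1aa to 1.92 in cry5, and the FFA minus control values from -1.25 in per2 to -0.20 in cry-dash.

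The size order of the genes differed between the treatments, as a description. In glucose against control, cry5 had the largest log2 fold change (1.92), then per2 (1.30) and cry-dash (1.19). per2 and cry-dash differed there by less than the SE of per2 (0.155). In FFA against control, per2 had the largest (-1.25), then cry5 (-0.60) and cry1aa (-0.34), while cry-dash (-0.20) and tefa (-0.21) had the smallest and differed by less than their SE. Without control replicate 4, the highest control library in cry-dash, the cry-dash value was -0.11. Both comparisons share the 5 control libraries.

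For 3 of the genes the files hold a like-named partner. The sources used here do not say how reads matching several genes were counted, so a split of reads between such copies is uncertain, and each pair is given with its ratio of counts. tefb, another PAR bZIP gene, had 85.9 ± 8.09 CPM in glucose, 114.9 ± 15.0 CPM in FFA and 118.5 ± 16.0 CPM in control pools. It was lower in glucose than in control pools by a log2 fold change of -0.46 ± 0.0991 (adjusted p = 0.00644, edgeR) and lower than in FFA pools by -0.42 ± 0.0949 (adjusted p = 0.00606, edgeR). The log2 ratio of tefa to tefb counts was 1.45 ± 0.200 in glucose, -0.07 ± 0.242 in FFA and 0.10 ± 0.343 in control pools, and the lowest glucose value (1.10) lay above every other library.

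cry1ab, the partner of cry1aa, had 32.8 ± 2.55 CPM in glucose, 29.0 ± 1.99 CPM in FFA and 32.7 ± 2.46 CPM in control pools, with a log2 fold change of 0.00 for glucose against control (adjusted p = 0.988, edgeR). The log2 ratio of cry1aa to cry1ab counts was 2.36 ± 0.114 in glucose, 1.66 ± 0.179 in FFA and 1.83 ± 0.0869 in control pools. cry1ba, the partner of cry1bb, was higher in glucose than in control pools, at 527.5 ± 34.9 against 364.1 ± 62.5 CPM, and had 351.5 ± 37.1 CPM in FFA pools. Its log2 fold change was 0.53 ± 0.0990 for glucose against control (adjusted p = 0.00223, edgeR) and 0.59 ± 0.0940 for glucose against FFA (adjusted p = 0.000489, edgeR). The log2 ratio of cry1bb to cry1ba counts was -3.66 ± 0.141 in glucose, -4.06 ± 0.286 in FFA and -3.83 ± 0.382 in control pools, and these ratios overlapped.

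**Figure D3:**
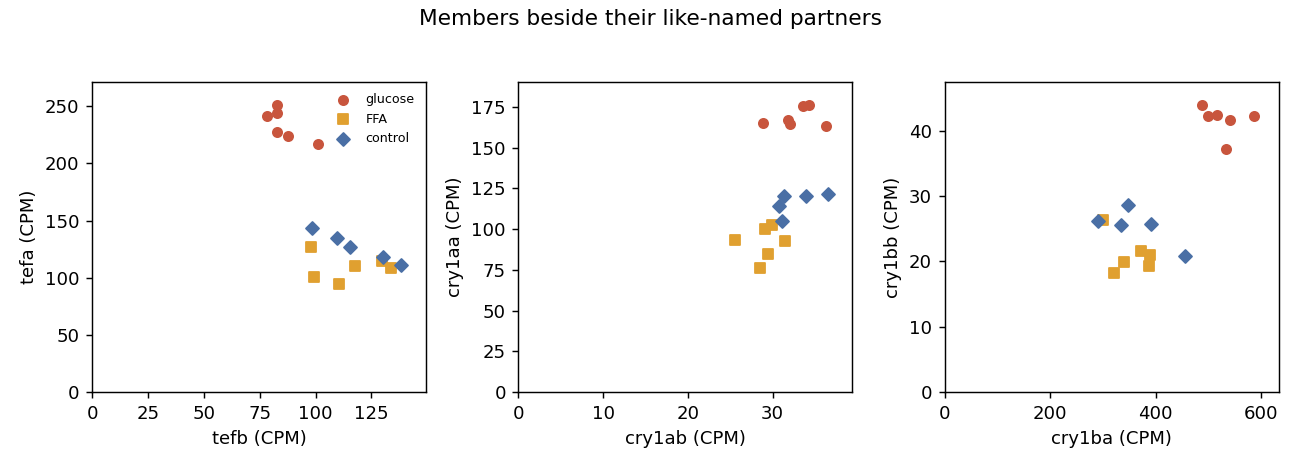
Level of tefa, cry1aa and cry1bb (vertical axes, CPM) against that of tefb, cry1ab and cry1ba (horizontal axes, CPM) in each library; all axes start at 0. Glucose libraries have high tefa with low tefb, high cry1aa with cry1ab levels like those of the controls, and both cry1bb and cry1ba high.

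Of the other genes of the clock and the light response, 53 of 55 were tested in 5 lists. The lists were chosen with earlier results of these data known, so their counts and p-values are a description and no test of the lists. In glucose against control, 6 of the 53 were called higher and 13 lower, where 5.87% and 5.02% of all genes were, and the median log2 fold change was -0.11. In glucose against FFA, 11 were called higher and 11 lower, where 9.00% and 7.98% of all genes were. In FFA against control, edgeR called 0 of the 53 in either direction, where 1.10% of all genes were called higher and 0.716% lower. There, 3 were higher and 6 lower at an unadjusted edgeR p under 0.05. At that threshold 1379 of the 13539 genes passed in either direction, and 4.49% of all genes were lower. DESeq2 called 2 of the 53 lower (hlfa and lonrf1l), where it called 166 of all genes lower, and limma-voom called 0. Without FFA replicate 6 edgeR called lonrf1l lower, and without control replicate 1 it called ciarta, a clock repressor gene, higher. The counts below are given by role, to be set beside the shares of all genes called in the same comparison. A single call in such a short list is not read as a result about its role.

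Among 11 DNA repair and other light-induced genes, 5 were called higher and 0 lower in glucose against control. ddb2, which recognises DNA damaged by ultraviolet light, had 27.6 ± 2.61 CPM in glucose against 11.5 ± 1.86 CPM in control pools, a log2 fold change of 1.27 ± 0.0976 (adjusted p = 2.83e-07, edgeR). xpc, a damage sensor of nucleotide excision repair, had 38.9 ± 2.47 against 21.6 ± 2.82 CPM (0.85 ± 0.0815, adjusted p = 3.21e-06, edgeR). neil1, a base excision repair glycosylase, had 26.9 ± 3.83 against 16.6 ± 2.25 CPM (0.70 ± 0.110, adjusted p = 0.000604, edgeR). The other called genes were lonrf1l (0.44 ± 0.114) and polh, a translesion DNA polymerase (0.30 ± 0.0726). In glucose against FFA, 8 were called higher and 1 lower, led by ddb2 (1.59 ± 0.0935, adjusted p = 9.34e-09, edgeR), xpc (1.04 ± 0.0777) and lonrf1l (0.86 ± 0.109), and the lower one was uvssa (-0.44 ± 0.0900). In FFA against control none passed the adjusted threshold, and lonrf1l (-0.43 ± 0.114, adjusted p = 0.0709, edgeR) and ddb2 (-0.33 ± 0.0991, adjusted p = 0.131, edgeR) had the smallest p in the list. Both were called with the no-feature share as covariate and without the 3 libraries with the highest photoreceptor sums. lonrf1l was also called with DESeq2, with library size alone and without FFA replicate 6. Neither was called from the 2 groups alone, with the replicate block or with limma-voom.

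Among 7 other period and cryptochrome genes, 1 was called higher and 2 lower in glucose against control. The higher one was cry1ba. The lower ones were per1a, a period gene of the clock loop, at 20.3 ± 4.80 against 38.6 ± 8.82 CPM (-0.92 ± 0.175, adjusted p = 0.00279, edgeR), and cry4 (-0.23 ± 0.0679, adjusted p = 0.0414, edgeR). The cry4 call was lost when any of control replicates 1, 2 and 6 or glucose replicates 1, 2, 3 and 6 was left out, with an adjusted p of 0.0530 to 0.114. Against FFA pools, cry1ba and per3 (0.53 ± 0.143) were called higher in glucose and per1a lower (-0.59 ± 0.169). The per1a call against FFA was lost when any of glucose replicates 2, 5 and 6 or FFA replicates 2, 3 and 4 was left out, with an adjusted p of 0.0501 to 0.0587.

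Among 9 D-box binding factors, 0 were called higher and 6 lower in glucose against control, with a median log2 fold change of -0.46. nfil3-2, nfil3-5 (bZIP genes related to the D-box repressor nfil3) and hlfa (a PAR bZIP factor) had the smallest p. Their levels were 44.1 ± 3.38 against 65.3 ± 10.5 CPM, 152.5 ± 13.4 against 192.2 ± 12.7 CPM and 42.5 ± 5.56 against 60.2 ± 3.15 CPM. Their log2 fold changes were -0.56 ± 0.1003 (adjusted p = 0.00161), -0.33 ± 0.0625 (0.00242) and -0.50 ± 0.0949 (0.00261), all from edgeR. In glucose against FFA 5 were called lower, led by nfil3-5 (-0.53 ± 0.0598), nfil3-2 (-0.65 ± 0.0962) and tefb. The glucose means of the 6 called factors and of tefa lay on opposite sides of the control means. tefa stood higher in every glucose library, while tefb, dbpb and hlfb overlapped between glucose and control libraries.

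Among 16 activators and nuclear receptor genes of the clock loop, 0 were called higher and 4 lower in glucose against control. nr1d4b, a REV-ERB family repressor, had 3.25 ± 0.627 against 10.2 ± 4.31 CPM (-1.64 ± 0.221, adjusted p = 0.000127, edgeR). rorcb, a ROR family receptor, had 14.7 ± 1.75 against 25.1 ± 3.28 CPM (-0.77 ± 0.104, adjusted p = 0.000127, edgeR). clockb, a CLOCK gene, was lower by less (-0.32 ± 0.0769, adjusted p = 0.0131, edgeR). Among 10 clock repressors and modifiers, 1 was called lower and 0 higher, fbxl3a (-0.38 ± 0.104, adjusted p = 0.0251, edgeR), whose F-box protein targets cryptochromes in mammals. The fbxl3a call was lost when any of control replicates 2 and 6 or glucose replicates 1, 3 and 6 was left out, with an adjusted p of 0.0510 to 0.0590. With the replicate number as a block, clockb was no longer called (adjusted p = 0.0960, edgeR). Against FFA pools, nr1d4b (-1.69 ± 0.214) and rorcb (-0.64 ± 0.1003) were called lower in glucose in the loop list. Among the repressors and modifiers, fbxl3a (-0.50 ± 0.0993) and bhlhe41, a DEC family repressor (-0.24 ± 0.0675), were called lower and tipin, whose product binds timeless, higher (0.31 ± 0.0953). The bhlhe41 call was lost without glucose replicate 6 (adjusted p = 0.0509, edgeR). The tipin call was lost when any of glucose replicates 2, 3, 5 and 6 or FFA replicates 1, 2, 4 and 5 was left out, with an adjusted p of 0.0514 to 0.0728 in edgeR.

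**Figure D4:**
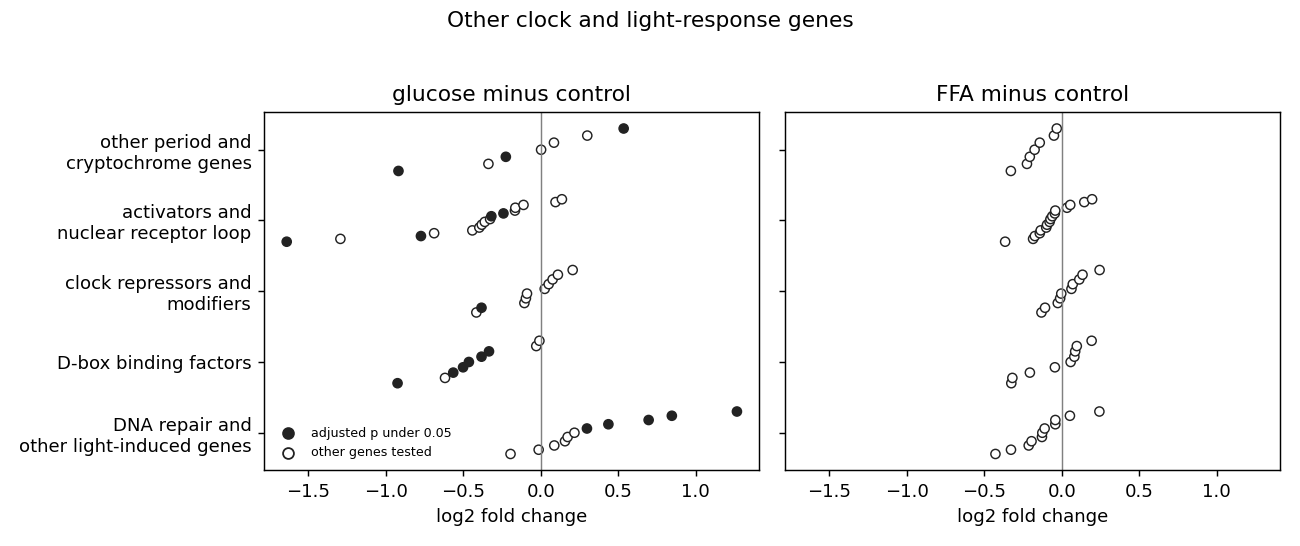
log2 fold change (horizontal axes) of each tested gene of the 5 lists for glucose minus control (left) and FFA minus control (right); filled points passed the adjusted threshold of 0.05. On the left 6 genes pass above 0 and 13 below, and on the right 0 pass.

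Markers of light-sensing and nervous tissue were summed per library. Photoreceptor markers, 17 of 18 above the count filter, summed to 1430 to 7646 CPM in glucose, 2284 to 5807 CPM in FFA and 1646 to 8795 CPM in control libraries. Neuron markers, 16 of 17 above the filter, summed to 1564 to 3406 CPM in glucose, 1956 to 3013 CPM in FFA and 1190 to 3716 CPM in control libraries. In both lists edgeR, DESeq2 and limma-voom called 0 genes in any comparison, and 0 passed an unadjusted p under 0.05. The median log2 fold change of the photoreceptor markers was -0.49 for glucose against control and -0.32 for glucose against FFA, and that of the neuron markers -0.25 and -0.18. Pineal markers, 9 of 10 above the filter, summed to 68.9 to 292.3 CPM in glucose, 88.0 to 195.9 CPM in FFA and 75.1 to 298.2 CPM in control libraries. The pineal opsin exorh was called lower in glucose than in control pools by edgeR, at 8.63 ± 1.18 against 12.9 ± 1.74 CPM (-0.57 ± 0.110). aanat2, an enzyme of melatonin synthesis, was called lower in glucose than in FFA pools by edgeR, at 1.74 ± 0.364 against 2.97 ± 0.842 CPM (-0.75 ± 0.214). At an unadjusted p under 0.05, 2 of 9 pineal markers were lower in glucose against control and 2 of 9 against FFA. Of all genes, 10.9% were lower against control and 14.0% against FFA. In glucose against FFA 1 of 9 pineal markers was higher at that threshold, and in glucose against control 0.

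Non-visual opsins, 21 of 31 above the filter, summed to 55.7 to 129.8 CPM in glucose, 63.9 to 108.7 CPM in FFA and 68.8 to 142.9 CPM in control libraries. opn4xb, a melanopsin gene, had 3.597 ± 0.513 CPM in glucose, 6.37 ± 0.193 CPM in FFA and 6.51 ± 2.16 CPM in control pools, and was called lower in glucose than in either by edgeR. opn8b was called lower in glucose than in control pools (-0.69 ± 0.166), and tmtops2b lower than in FFA pools (-1.42 ± 0.277). tmtops2b had few reads, at 0.377 ± 0.105 CPM in glucose and 1.03 ± 0.368 CPM in FFA pools. In glucose against FFA, DESeq2 and limma-voom called opn4a and opn9 lower as well. These marker genes were named after their values were seen. At an unadjusted p under 0.05, 7 of 21 non-visual opsins were lower in glucose than in control pools, where 10.9% of all genes were. Against FFA pools 7 of 21 were lower, where 14.0% of all genes were, and 0 were higher in either comparison. The median log2 fold change of these opsins was -0.45 for glucose against control and -0.40 for glucose against FFA. The non-visual opsin sums of glucose and control libraries overlapped through glucose replicate 4 (129.8 CPM). The other 5 glucose libraries were at 55.7 to 67.3 CPM and every control library at 68.8 CPM or more. Control replicates 1 and 2, high in photoreceptor markers like glucose replicate 4, had 142.9 and 111.3 CPM. FFA replicate 6 had 63.9 CPM, inside the glucose range. This split was seen after the fact and was not tested. The part of light-sensing cells in the levels of the 6 genes was not tested.

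The levels of the 6 genes were compared from pool to pool within a group. The differences of group means do not use this variation, but the calls and the overlap of groups depend on its size. Over the 6 FFA libraries, all 15 pairs of genes had a positive Pearson r of log2 CPM, from 0.456 to 0.900 with a median of 0.709. Over the 6 glucose libraries, 7 of 15 pairs were positive, from -0.758 to 0.624 with a median of -0.051. The 15 pairs share 6 genes and are not independent. The share of positive pairs over all genes was not computed, so nothing particular to these genes is read from the counts. In an exact two-sided permutation test (720 orders), 4 of the 15 FFA pairs and 0 of the 15 glucose pairs had p under 0.05, and none of the 30 relations passed a Benjamini-Hochberg adjustment over them, the smallest adjusted p being 0.139. The pair per2 and cry1aa had the highest r in FFA, 0.900 (exact permutation p = 0.0125), with a Spearman rho of 0.886 and an r of 0.821 without the 2 libraries farthest from the median. The pair cry5 and tefa had an r of 0.868 (exact permutation p = 0.0139) and a Spearman rho of 0.829. This r rested on 2 libraries, since it was 0.033 without the 2 farthest from the median. With the share of counts on the no-feature line regressed out within the group, 4 FFA pairs passed the adjustment by Pearson r. They were per2 with cry1aa, per2 with cry1bb, cry1aa with cry1bb, and cry5 with tefa. By Spearman rho, cry5 with tefa did not pass (adjusted permutation p = 0.0714). The r of the residuals of cry5 and tefa was 0.888 without the 2 libraries farthest from the median. Residuals of a fit to 6 libraries are not independent, so their permutation p-values are approximate. The difference in r between the groups was not tested.

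FFA replicate 6 had the highest level of the FFA libraries in per2, cry5, cry1bb and tefa, and FFA replicate 1 the lowest in per2, cry1aa and cry1bb. These 2 libraries, at opposite ends for per2 (41.8 and 18.8 CPM), were the FFA libraries with the lowest summed photoreceptor markers, at 2291 and 2284 CPM against 4071 to 5807 CPM in the other 4. Glucose replicate 4, with 7646 CPM of photoreceptor markers, had per2 at 179.7 CPM, beside 163.5 to 172.3 CPM in the other 5 glucose libraries.

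**Figure D5:**
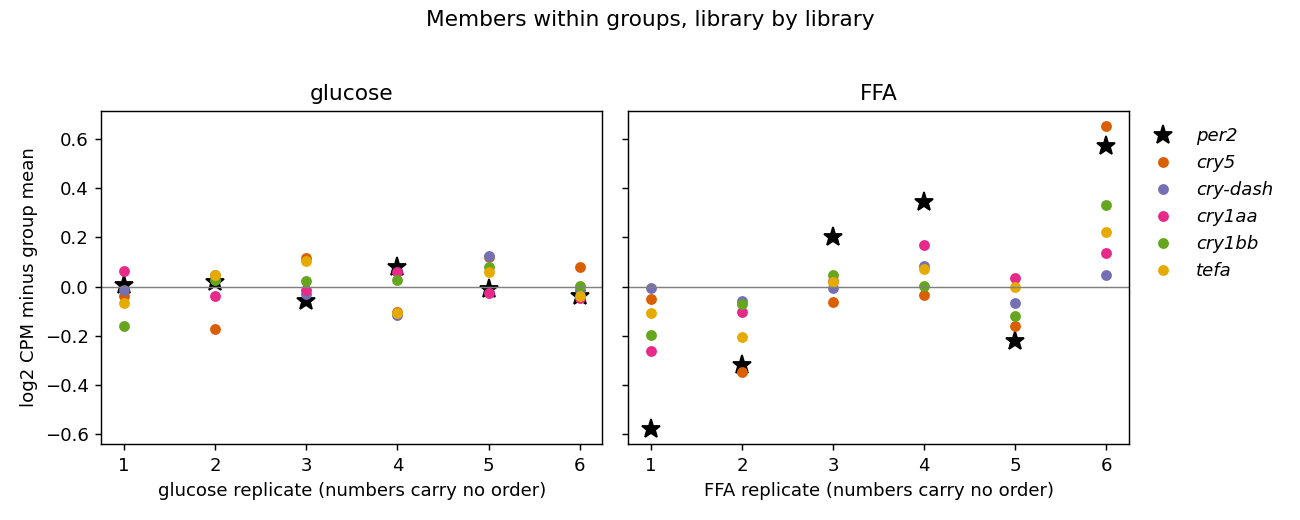
Deviation of each gene's log2 CPM from its group mean (vertical axis) in each glucose library (left) and FFA library (right); stars mark per2. The coefficient of variation of 5 genes is larger in FFA than in glucose libraries, and that of cry-dash is smaller, at 4.09% in FFA and 5.57% in glucose libraries.

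Over all 17 libraries, the genes outside the set most like per2 by Pearson r of log2 CPM were lonrf1l (0.946), wdr76 (0.943), leap2 (0.933), pole (0.929), adssl (0.924), xpc (0.922), rb1 (0.909) and ddb2 (0.902). The genes most like cry5 were wdr76 (0.986), ddb2 (0.970), xpc (0.957), adssl (0.946), pdap1a (0.946), mob1bb (0.942), plin6 (0.931) and ptgesl (0.927). They were ranked among 11975 genes that had a gene name and a mean of 1 CPM or more. Genes known only by a clone or locus symbol were left out of this ranking. The 17 libraries fall into 3 groups, and differences between group means enter r, so r is given as a description with no p. With each group's mean removed, r of the genes named with per2 ran from -0.135 (ddb2) to 0.735 (lonrf1l). For the genes named with cry5 it ran from 0.157 (xpc) to 0.781 (mob1bb).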

How the data were processed

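The deposited files hold whole-number read counts per gene, 1 file per library, for 15316 genes named by symbol, with no normalization by the authors. STAR, DESeq2 and the genome build danRer7 are named in the submitters' processing notes, without role or version. The sources used here do not name the counter, the annotation, the strand setting or the handling of multi-mapping reads. Per the labels' protocols, stranded mRNA libraries from all 17 pools were sequenced together as paired 75 bp reads. The no-feature line took 32.1 ± 2.31% of counts in glucose, 33.4 ± 1.88% in FFA and 33.5 ± 2.70% in control libraries, and with the ambiguous line stayed out of library sizes and tests.

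Counts were tested here with edgeR 4.0.16 (R 4.3.3). The 13539 genes passing filterByExpr (minimum count 10) were scaled by TMM and fitted by quasi-likelihood in 1 model of 3 group means (14 residual degrees of freedom), with Benjamini-Hochberg adjustment over all genes tested. CPM were computed from counts and TMM-scaled totals. The members and lists were chosen with earlier results of these data known. In each list and comparison the text names the 3 called genes with the smallest p, plus 8 genes most like per2 and 8 most like cry5. Some genes were named outside this rule, after their values were seen. These were polh, lonrf1l, tefb, dbpb, hlfb and cry1ab in glucose against control, and uvssa in glucose against FFA. Also so named were lonrf1l, ddb2, hlfa and ciarta in FFA against control, and the marker genes. The fit was checked on simulated data. In each of 40 within-group pairs, libraries differed beyond sampling noise (chi-square over its degrees of freedom 4.33 to 68.8), and none was treated as a duplicate. Alternatives tried were RLE scaling, scaling by library size, omission of the count filter, DESeq2 1.42.0, limma-voom (limma 3.58.1), the 2 groups alone, a replicate block, the no-feature share as covariate, 3 libraries removed, grouping by tag, and leaving out each library. Promoter motifs and proteins of the members were not analysed here.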

Additional observations from a re-analysis of the deposited data

Results flagged for a closer look

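Of 18 combinations of a gene and a group, 3 held a library far from the others by Dixon's test, which flags about 1 in 20 groups by chance. cry5 stood at 6.06 CPM in FFA replicate 6, apart from the other FFA libraries. cry-dash stood at 30.2 CPM in control replicate 4, above the other control libraries. cry1bb stood at 37.2 CPM in glucose replicate 1, below the other glucose libraries and still above every FFA and control library.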

How the results depend on the processing

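The alternatives to each fold were mostly refits without 1 library, 11 of 20 for a glucose against control fold. Such a refit can move a group mean only a little, so the count that follows is a description and no test. Over every alternative except grouping by tag, all 366 values of the 18 log2 fold changes of the 6 genes kept their sign. They moved by less than 1 SD within groups. Grouped by the treatment tag, for per2, cry5, cry-dash, cry1aa, cry1bb and tefa they were -1.46, -1.13, -0.48, -0.42, -0.34 and -0.37 for glucose against control, 0.75, 1.17, 0.76, 0.27, 0.49 and 0.58 for FFA against control, and -2.21, -2.30, -1.24, -0.68, -0.83 and -0.94 for glucose against FFA. Under the tags 84 genes were called higher and 22 lower in glucose against control, with 0 and 0 of the 53 list genes and 0 of the 6 genes higher. For FFA against control 0 genes were called higher and 1 lower, with 0 of the 6 lower. For glucose against FFA they were 223 and 288, with 4 and 4 list genes, and 0 of the 6 genes higher and 6 lower. Values of single list genes under the tags are not given here. As reported, 795 genes were called higher and 679 lower in glucose against control, 149 and 97 in FFA against control, and 1218 and 1081 in glucose against FFA. In glucose against control, higher and lower calls were 316 and 344 with the replicate block (8 list genes lower) and 1247 and 1275 with the no-feature share as covariate (10 list genes higher). Higher calls were 489 from the 2 groups alone and 466 without control replicates 1 and 2 and glucose replicate 4. In FFA against control, higher and lower calls were 59 and 31 with the block, 362 and 287 with the covariate (1 and 5 list genes) and 290 and 299 without the 3 libraries (2 and 2 list genes). There, lower calls were 166 with DESeq2 (2 list genes) and 59 from the 2 groups alone, and library size alone gave 1 list gene lower. Of the 6 genes, 1 was lower from the 2 groups alone, 1 with the block, 4 with the covariate and 5 without the 3 libraries. In glucose against FFA, calls were 2002 and 1976 with the covariate and 1904 and 1834 without the 3 libraries, and list genes lower were 18 from the 2 groups alone, 18 with the covariate and 22 without the 3 libraries. Leaving out 1 library gave 501 (without control replicate 1) to 1181 (without glucose replicate 4) genes higher in glucose against control, and 97 to 183 higher and 52 to 95 lower in FFA against control, with 0 to 1 list genes in each direction. cry4 in glucose against control also lost its call from the 2 groups alone (adjusted p = 0.0813), with the block (0.0668) and without the 3 libraries (0.161), as did fbxl3a without the 3 libraries (0.117) and tipin in glucose against FFA with the block (0.0676), all from edgeR. The cause of these shifts was not tested. Over 16 same-numbered pairs of libraries, correlations of deviations ran from -0.750 to 0.504, 4 were over 0.1, and a library correlated best with its own number in 5 of 32 cases, so the numbers were not taken to pair the libraries. Taking residuals after the no-feature share, 4 pairs of the 6 genes within a group passed the adjusted threshold by Pearson r, against 0 as reported. Depth limits cry5 most, with 47 to 67 reads in FFA libraries and 69 to 92 in control libraries.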
